A study of Mus musculus with 24 samples.

Results

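The genes encoding the proteasome and its activators were followed across 24 RNA-seq libraries of mouse splenic B cells. Members were all genes whose symbol starts with Psma to Psmg and a number and whose value reached 0 log2 or more in at least 3 of the 24 libraries. Of 49 such symbols 48 met the limit, out of 23420 genes listed and 11885 that passed the same limit. The one that did not was Psmb11, the thymus form of a catalytic subunit, at -6.37 to -3.01 log2 in all 24 libraries. Psma8, an alpha subunit known from the testis, was just inside the limit, with 4 libraries at or above it, 2 of in vivo activated cells and 2 at 24 h in vitro. Psmc3ip matched by its symbol only: it encodes a partner of meiotic recombinases, which leaves 47 proteasome genes. The cells came from spleens of BALB/c mice and were enriched on beads, stained with antibodies and sorted. There were 8 groups of 3 libraries: B cells from germinal centers (GC) at an early, a peak and a late stage, B cells that had been activated in vivo, B cells held in culture under activation for 4 h, 12 h or 24 h, and naive B cells. No genetic change is named for any group. The labels name no stimulus, immunogen, day of collection, sex, animal or culture, so the p-values measure the spread between these libraries, which may be partly technical.

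The proteasome degrades proteins tagged with ubiquitin. Its 20S core is a barrel of alpha subunits (Psma genes), which gate the entrance, and beta subunits (Psmb genes), of which 3 are proteolytic. A 19S cap of ATPases (Psmc genes), which unfold the substrate, and non-ATPase subunits (most Psmd genes), which bind and cleave off ubiquitin, feeds the barrel. In cells of the immune system and in cells exposed to interferon-gamma, Psmb8, Psmb9 and Psmb10 are built in at the places of Psmb5, Psmb6 and Psmb7, forming the immunoproteasome, which cuts peptides suited to MHC class I. Psme1 and Psme2 encode the alpha and beta chains of PA28, a cap that opens the barrel without ATP and is also induced by interferon-gamma. Below, 32 genes are called constitutive (alpha, structural beta, constitutive catalytic, ATPase and non-ATPase subunits) and 5 immunoproteasome genes (Psmb8, Psmb9, Psmb10, Psme1 and Psme2). Splenic B cells carry both forms already at rest, and proteasome demand in activated B cells is known for cell growth and, later, antibody secretion.

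The values are log2 values per gene as deposited, and their antilogs summed to 990678 to 1008194 in each library, a scale like that of CPM. An antilog gives a gene's part of its library's sum. That part need not equal a share of the RNA, because values of equal rank were close across libraries. The normalization steps are not given in the sources used here, and the read depth behind the values is unknown. In bulk samples, fewer cells of a type and less RNA per cell cannot be told apart. The B-cell markers Cd79a, Cd79b, Ms4a1, Pax5 and Cd22 were present in every group, and Cd79a averaged 9.71 log2 at 4 h in vitro, against 11.37 log2 in naive cells. The 6 GC markers summed, on the linear scale, to 1308 to 1741 in GC libraries, and to at most 137 elsewhere. Summed macrophage and monocyte markers were 173 to 316 in early GC, 118 to 276 in peak GC and 505 to 2129 in late GC libraries, against 37.1 to 41.7 in naive libraries. The 4 Y-linked genes examined (Ddx3y, Eif2s3y, Kdm5d and Uty) had group means under -5 log2 in GC and in vivo activated cells. They summed, on the linear scale, to at most 0.10 in those 12 libraries and to 80.3 to 130 in the 12 others. Sex of the donors and group therefore cannot be told apart in the comparisons of GC or in vivo activated cells with naive or in vitro activated cells.

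The constitutive proteasome genes' share of the summed antilogs of a library was larger in every activated group than in naive cells. Without Psma8, these genes together took 0.558 ± 0.021%, 0.565 ± 0.022% and 0.539 ± 0.0082% of that sum at the early, peak and late GC stages. They took 0.625 ± 0.024% in in vivo activated cells, against 0.315 ± 0.0021% in naive cells (SD, n = 3 each). In vitro the share was 0.584 ± 0.016% at 4 h, 0.891 ± 0.0088% at 12 h and 0.821 ± 0.037% at 24 h. Every library of the other 7 groups had at least 0.531%, above the 3 naive libraries at 0.313% to 0.318%. The share of the 3 inducible catalytic genes had another order: it averaged 0.0432% in naive cells, 0.0188% at 4 h, 0.0315% at 12 h and 0.0399% at 24 h. In in vivo activated cells it averaged 0.0730%, and in GC libraries, early to late, 0.0733%, 0.0700% and 0.0647%. Each constitutive gene had its lowest group mean in naive cells except Psmb1, which was lowest at 4 h, and 23 of 32 had their highest at 12 h, Psma8 included in these counts. The range over the 8 group means had a median of 1.59 log2 units for the 32 constitutive genes, set against a median SD of 0.056 between libraries of a group. The markers of dividing cells Mki67, Top2a, Ccnb1, Bub1 and Cdk1 had a further order. They summed to 66.0 to 81.4 in naive cells, 25.3 to 28.0 at 4 h, 54.6 to 57.4 at 12 h and 1231 to 1277 at 24 h. In vivo these markers summed to 1857 to 1941, and in early, peak and late GC libraries to 2075 to 2658, 2160 to 2806 and 2078 to 2451. Their part in the proteasome changes was not tested.

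**Figure D1:**
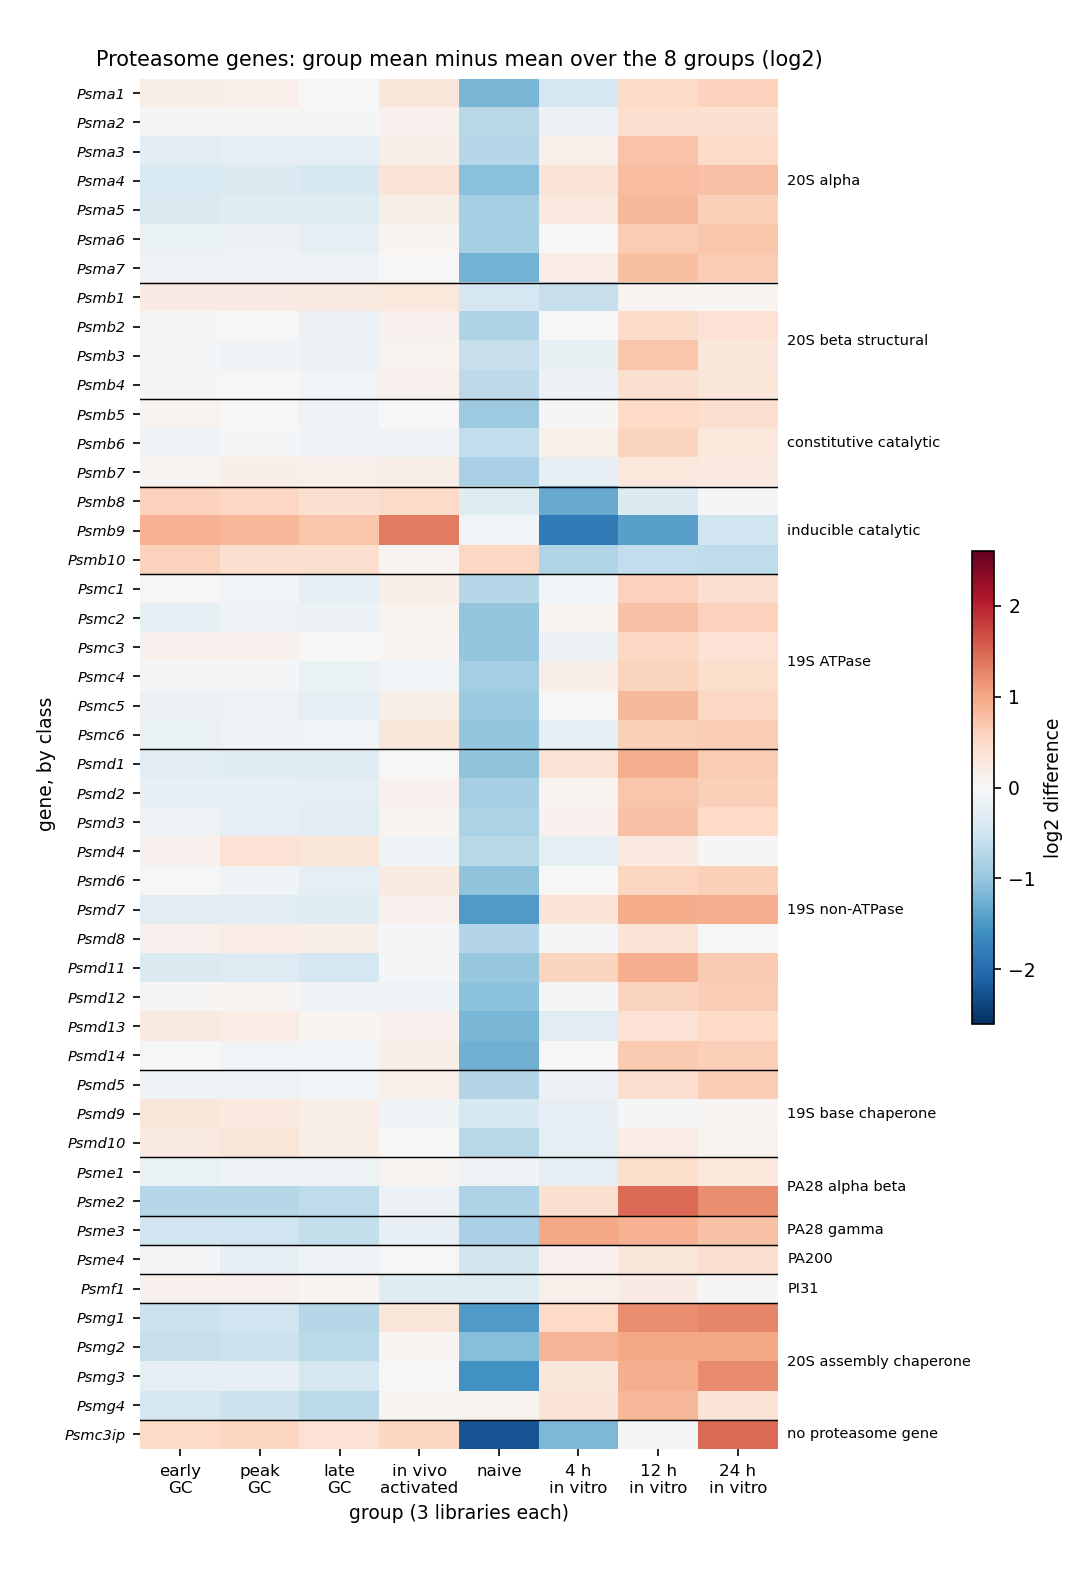
Group means of 47 members in the 8 groups, each given as log2 units above or below that gene's mean over the groups (colour), with genes in rows by class. Nearly all core and cap genes are lowest in naive cells and highest at 12 h or 24 h in vitro, while Psmb8, Psmb9 and Psmb10 are lowest at 4 h.

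Every one of the 7 comparisons with naive cells shares the same 3 naive libraries, and the genes are read side by side. Differences were called with limma at a Benjamini-Hochberg adjusted p under 0.05 over all 11885 genes. At 4 h 43 of 48 members were higher and 5 lower, where 38.9% of all genes tested were higher and 39.1% lower. At 12 h 45 were higher and 2 lower (background 41.7% and 39.2%), and at 24 h 46 and 2 (42.2% and 42.5%). In in vivo activated cells 45 were higher and 1 lower (39.2% and 40.1%). GC cells had 44 higher and 1 lower at the early stage (39.5% and 40.2%), 44 and 1 at the peak (40.5% and 39.3%) and 45 and 1 late (38.5% and 43.1%). The members' share of higher calls was above the background in each comparison and their share of lower calls under it. The 5 lower at 4 h were Psmb1, Psmb8, Psmb9, Psmb10 and Psme1, the 2 lower at 12 h and at 24 h were Psmb9 and Psmb10, the 1 lower in vivo was Psmb10, and the 1 lower at each GC stage was Psmg4. These counts include Psmc3ip, and Psma8, which met the level limit through in vivo and 24 h libraries alone and whose 4 h libraries overlapped with naive ones. Of the 31 constitutive genes other than Psma8, all 31 were higher at 12 h, at 24 h, in vivo and at the 3 GC stages, and 30 at 4 h. Their median log2 change was 0.89 at 4 h, 1.57 at 12 h, 1.49 at 24 h and 0.97 in vivo, and for the GC stages 0.80 (early), 0.83 (peak) and 0.72 (late). Medians over the constitutive genes below also leave out Psma8. The median over all genes tested lay between -0.07 and 0.03 in these comparisons. Because values of equal rank were close across libraries, such a median cannot show whether total RNA changed. Counting only changes of at least 1.5-fold, 35 members were higher and 3 lower at 4 h (26.4% and 27.2% of all genes), 41 and 2 at 12 h (30.8% and 28.7%), and 40 and 1 at 24 h (32.4% and 32.9%). By that rule 41 were higher and 0 lower in vivo (26.7% and 28.2%), where at an unadjusted p under 0.05 with no fold limit limma had 1 lower. Early GC cells had 36 and 0 (26.1% and 27.1%), again with 1 lower at the unadjusted p, peak GC cells 37 and 1 (27.4% and 26.8%) and late GC cells 33 and 1 (25.3% and 30%).

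**Figure D2:**
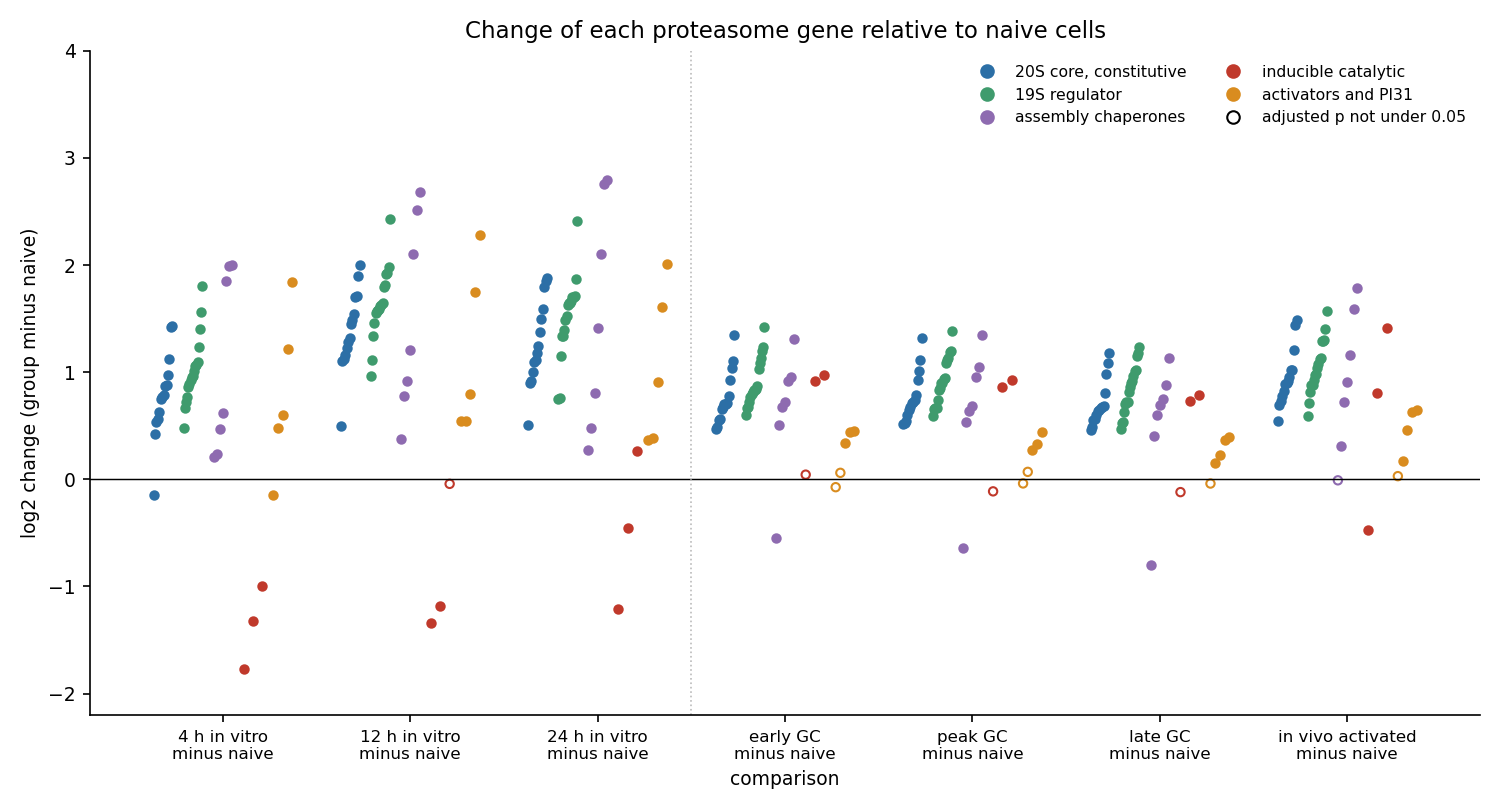
Log2 change against naive cells of each member without Psma8 and Psmc3ip, arranged by class, for the 7 other groups. Filled points passed adjusted p 0.05 and open points did not, and the inducible catalytic genes at 4 h, at -1.77 to -0.99, sit apart from the other classes.

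The ATPase ring and the non-ATPase subunits rose together. The 6 ATPases had a median log2 change of 0.91 at 4 h, 1.59 at 12 h, 1.46 at 24 h, 1.10 in vivo and 0.88 in peak GC cells, and the 11 non-ATPase subunits 1.01, 1.62, 1.66, 0.98 and 0.94. Psmd7, a structural partner of the deubiquitinase Psmd14 in the lid, had 5.40, 5.39 and 5.38 log2 in naive cells, 7.23, 7.22 and 7.12 at 4 h, 7.77, 7.85 and 7.83 at 12 h and 7.72, 7.77 and 7.89 at 24 h. The naive libraries lay below those of all 3 times. Its log2 change was 2.43 at 12 h (SE 0.053, adjusted p 1.11e-20), and 1.57 in vivo and 1.19 in peak GC cells. Psmd14 rose by 1.93 at 12 h (SE 0.050, adjusted p 8.3e-20) and Psmd1, the large scaffold of the base, by 1.99 (SE 0.047, adjusted p 2.92e-20). Psmd11, a scaffold subunit of the lid, rose early, by 1.56 at 4 h and 1.92 at 12 h, and by 0.65 in peak GC cells. Psmd13, another lid subunit, had 7.51, 7.55 and 7.41 log2 in early GC libraries and 7.72, 7.73 and 7.90 at 24 h, its highest group mean, against 6.07, 6.08 and 6.07 in naive ones. It rose by 1.42 in early GC cells (SE 0.052, adjusted p 3.41e-17) and by 1.71 at 24 h (adjusted p 5.27e-19).

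Among the ATPases the rise at 12 h was between 1.33 for Psmc1 and 1.81 for Psmc5, and in peak GC cells between 0.67 for Psmc1 and 1.13 for Psmc3. Psmc2 rose by 1.09, 1.79 and 1.63 at 4 h, 12 h and 24 h. Psmc6 was highest at 24 h, with a rise of 1.65, and rose by 1.30 in vivo. Psmd4 of the cap and the base assembly chaperones Psmd9 and Psmd10 had their highest group mean in GC cells. Psmd4, the ubiquitin receptor Rpn10, rose by 1.09 in peak GC cells (SE 0.054, adjusted p 9.11e-15), and by 0.97 at 12 h and 0.75 at 24 h. Psmd9, a chaperone of the base, rose by 0.72 in early GC cells and by 0.38 at 12 h (SE 0.063, adjusted p 3.5e-10 and 8.95e-06). Psmd10, the base chaperone gankyrin, rose by 1.05 in peak GC cells (SE 0.059, adjusted p 1.06e-13) and by 0.92 at 12 h.

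Among core subunits, Psma7, an alpha subunit, rose by 1.42 at 4 h, 2.004 at 12 h (SE 0.051, adjusted p 6.47e-20) and 1.88 at 24 h, and by 1.11 in peak GC cells. Psma4 rose by 1.43 and 1.90 at 4 h and 12 h and by 0.72 in peak GC cells (SE 0.048). Psma1 had 7.91, 7.95 and 7.84 log2 in early GC cells and 8.09, 7.99 and 8.04 in vivo, against 6.51, 6.58 and 6.58 in naive cells. It rose by 1.34 in early GC cells (adjusted p 1.02e-16), where Psma3 and Psma5 rose by 0.47 and 0.49. Psma8 stayed near the limit of measurement, with 0.74, -0.06 and 0.02 log2 in vivo, against -4.99, -3.71 and -3.08 in naive cells, and its change of 4.16 had the largest SE of the members, 0.477. The 4 structural beta genes had a median change of 0.48 at 4 h and the 7 alpha genes other than Psma8 0.88, and the difference was not tested. Psmb1 was the 1 constitutive gene that fell at 4 h: it had 7.69, 7.66 and 7.55 log2 at 4 h, against 7.79, 7.81 and 7.74 in naive cells, with no overlap, and fell by 0.15 log2 (SE 0.049, adjusted p 0.00824). At 12 h it had risen by 0.50 (adjusted p 1.85e-09), and in vivo by 0.73. Compared per length, naive cells had a median of 6.79 log2 per kilobase over the structural beta genes, 6.22 over the alpha genes, 5.80 over the ATPases and 5.38 over the non-ATPase subunits. At 12 h the alpha and structural beta medians were 7.94 and 8.09 log2 per kilobase. The length counts every annotated exon of a gene, for example 3427 bases for Psmb1 and 766 for Psmb3. Levels per kilobase of different genes or classes therefore depend on the annotated transcripts.

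The immunoproteasome catalytic genes parted from their constitutive counterparts, and did so differently in vitro and in vivo. In culture the ratio of each inducible gene to its partner was below that of naive cells at all 3 times. In vivo activated cells had a higher ratio for Psmb9 over Psmb6, an overlapping one for Psmb8 over Psmb5 and a lower one for Psmb10 over Psmb7. Psmb8 and Psmb9 lie next to each other in the MHC region of chromosome 17, with the peptide transporter gene Tap1 between them, at 34197721-34201454 (+ strand) and 34181987-34187764 (- strand) on mm10. Tap1 occupies 34187553-34197225 (+ strand). Gene positions here are GENCODE vM21 spans, in which Tap1 overlaps Psmb9 by 212 bases on the opposite strand. The library kit keeps strand, but the strand setting of the counting is not given in the sources used here. Psmb10 is on chromosome 8 at 105935735-105938444 (- strand). Of the constitutive partners, Psmb5 is on chromosome 14 at 54614119-54618022 (- strand), Psmb6 on chromosome 11 at 70525367-70527858 and Psmb7 on chromosome 2 at 38588036-38644087. Promoter sequence from RefSeq on GRCm38.p6, 250 bases before to 50 after the start, 5′ to 3′ on the gene's strand, is shown for 2 pairs, Psmb8 with Psmb5 and Psmb9 with Psmb6, so that the sequences at the start of the genes that moved apart can be set side by side. Windows are chr17:34197945-34198244 (+), chr17:34187281-34187580 (-), chr14:54617946-54618245 (-) and chr11:70525107-70525406 (+), in the order below. They follow RefSeq starts, which differ from the ends of the GENCODE spans. The windows of Psmb8 and Psmb9 lie inside the spans given for these genes. Capitals mark a gamma-activated site in Psmb8, the opposite-strand CCAAT box in Psmb9, and an antioxidant-response type of match in Psmb5 and Psmb6.
Psmb8: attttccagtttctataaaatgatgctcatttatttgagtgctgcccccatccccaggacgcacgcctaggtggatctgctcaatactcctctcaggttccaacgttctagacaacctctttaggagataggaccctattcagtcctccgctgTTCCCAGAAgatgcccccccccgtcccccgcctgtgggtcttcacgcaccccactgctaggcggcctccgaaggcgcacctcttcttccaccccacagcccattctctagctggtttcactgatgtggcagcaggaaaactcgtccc
Psmb9: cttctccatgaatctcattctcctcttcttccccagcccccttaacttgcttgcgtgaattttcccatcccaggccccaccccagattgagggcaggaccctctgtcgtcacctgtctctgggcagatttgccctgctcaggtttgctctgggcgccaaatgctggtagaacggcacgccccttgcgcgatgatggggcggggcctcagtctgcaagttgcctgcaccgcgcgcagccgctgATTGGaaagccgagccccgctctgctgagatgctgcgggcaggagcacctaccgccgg
Psmb5: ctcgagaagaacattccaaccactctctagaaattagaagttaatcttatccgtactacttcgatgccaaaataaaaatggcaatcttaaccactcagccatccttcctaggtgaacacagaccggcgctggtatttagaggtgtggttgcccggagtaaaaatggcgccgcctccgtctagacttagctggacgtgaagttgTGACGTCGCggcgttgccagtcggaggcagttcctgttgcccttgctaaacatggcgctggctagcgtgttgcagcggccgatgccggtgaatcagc
Psmb6: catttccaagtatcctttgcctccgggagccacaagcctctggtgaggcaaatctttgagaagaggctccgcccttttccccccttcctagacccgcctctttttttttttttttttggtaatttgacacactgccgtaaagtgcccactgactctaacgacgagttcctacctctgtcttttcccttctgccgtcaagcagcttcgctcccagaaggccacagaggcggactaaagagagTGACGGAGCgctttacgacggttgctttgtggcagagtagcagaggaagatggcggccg

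The motifs were searched on both strands. TTCNNNGAA, the gamma-activated site of interferon-gamma signalling, was in 8.3% of 32851 promoter windows and in 3 of 40 members with a window, Psmb8, Psmd2 and Psmg1. TGACNNNGC, the antioxidant response element bound by the Nfe2 family, was in 12.4% of all windows and in 6 of 40 members (Psmb5, Psmb6, Psmc6, Psmd12, Psmd9 and Psme4). GAAANNGAA, the interferon response element, was in 8.56% of windows and in 7 members, among them Psme1. CCAAT was in 37.4% of windows and 14 members, CACGTG in 7.15% and 4 members, and GGGNNTTTC, an NF-kB type, in 4.36% and 1 member, Psma6. Psmb9 and Tap1 have start sites so close that their windows share 275 bases. A match describes the letters of a window and is not evidence of binding.

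Psmb8 had 8.84, 8.86 and 8.80 log2 in early GC, 8.82, 8.82 and 8.68 in peak GC, 8.69, 8.62 and 8.64 in late GC and 8.75, 8.67 and 8.75 in in vivo activated cells, against 7.99, 7.87 and 7.89 in naive cells. In vitro it had 6.84, 6.98 and 6.94 at 4 h, 7.87, 7.87 and 7.88 at 12 h and 8.07, 8.18 and 8.29 at 24 h. GC and in vivo libraries lay above all naive ones, 4 h libraries below all of them, and 12 h libraries overlapped with them. The log2 change against naive cells was 0.92 in early GC, 0.86 in peak GC, 0.73 in late GC and 0.81 in vivo, with adjusted p 2.31e-13, 6.72e-13, 1.37e-11 and 2.23e-12. It was -0.99 at 4 h (SE 0.054, adjusted p 4.52e-14), -0.04 at 12 h (adjusted p 0.469) and 0.27 at 24 h (adjusted p 8.75e-05). From 4 h to 12 h Psmb8 rose by 0.95 (adjusted p 8.02e-13).

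Psmb9 had 7.47, 7.44 and 7.30 log2 in early GC, 7.34, 7.43 and 7.30 in peak GC, 7.17, 7.24 and 7.26 in late GC and 7.83, 7.80 and 7.92 in vivo, against 6.55, 6.38 and 6.37 in naive cells. At 4 h it had 4.64, 4.69 and 4.66, at 12 h 5.13, 5.04 and 5.11 and at 24 h 5.87, 5.98 and 6.09. All 9 in vitro libraries lay below all naive ones, and all GC and in vivo libraries above them. Against naive cells its log2 change was 1.41 in vivo (SE 0.062, adjusted p 1.13e-15), 0.97 in early, 0.92 in peak and 0.79 in late GC cells. In culture it fell, by 1.77 at 4 h, 1.34 at 12 h and 0.46 at 24 h (adjusted p 1.72e-17, 2.01e-15 and 4.01e-07). Tap1, which shares its start region with Psmb9, rose by 1.17 in vivo (adjusted p 9.75e-14), fell by 0.64 at 4 h (adjusted p 5.07e-09) and was -0.06 in peak GC cells (adjusted p 0.374).

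Psmb10 behaved differently from the other inducible subunits. It had 6.74, 6.77 and 6.63 log2 in early GC, 6.63, 6.64 and 6.42 in peak GC, 6.46, 6.55 and 6.64 in late GC and 6.18, 6.10 and 6.31 in vivo, against 6.78, 6.60 and 6.64 in naive cells. It had 5.38, 5.38 and 5.27 at 4 h, 5.48, 5.50 and 5.48 at 12 h and 5.33, 5.44 and 5.61 at 24 h. GC libraries overlapped with naive ones at all 3 stages, in vivo libraries lay below them, and in vitro libraries lay lower still. Psmb10 fell by 1.33, 1.18 and 1.21 log2 at 4 h, 12 h and 24 h (SE 0.076, adjusted p 1.34e-13, 8.95e-13 and 4.09e-13) and by 0.48 in vivo (adjusted p 4.98e-06). Against naive cells the Psmb10 difference was 0.04 in early, -0.11 in peak and -0.12 in late GC cells, none of them called (adjusted p 0.607, 0.176 and 0.148). No call was made for Psmb10 from 4 h to 12 h, where the change was 0.14 (adjusted p 0.107), while Psmb9 rose over the same interval by 0.43 (adjusted p 2.66e-06).

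The constitutive partners rose in every activated group. Psmb5, the chymotrypsin-like subunit, had 4.78, 4.66 and 4.50 log2 in naive cells, 5.65, 5.65 and 5.56 at 4 h, 6.09, 6.07 and 6.13 at 12 h and 5.91, 5.999 and 6.17 at 24 h. Its log2 change was 1.45 at 12 h (SE 0.082, adjusted p 7.3e-14), 0.95 in vivo and 1.04 in early GC cells. Psmb6, the caspase-like subunit, rose by 1.22 at 12 h (SE 0.065, adjusted p 3.03e-14), 0.55 in vivo and 0.60 in peak GC cells. Psmb7, the trypsin-like subunit, rose by 1.12 at 12 h (SE 0.052, adjusted p 1.81e-15), 1.02 in vivo and 1.01 in peak GC cells. Levels of the paired genes were compared per length. Psmb8 stood at 6.22 and Psmb5 at 5.78 log2 per kilobase at 4 h, against 7.21 and 4.80 in naive cells. Psmb9 stood at 7.41 and Psmb6 at 7.25 log2 per kilobase in vivo, and at 4.23 and 7.47 at 4 h. Psmb10 stood at 4.96 and Psmb7 at 6.99 log2 per kilobase at 4 h, against 6.28 and 6.37 in naive cells.

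Within each library, the log2 ratio of an inducible subunit to its partner cancels a scale factor common to all genes of that library. An adjustment that depends on a gene's level would not cancel, and the normalization steps are not given in the sources used here. Psmb8 over Psmb5 was 3.21, 3.20 and 3.39 in naive cells, 1.20, 1.33 and 1.38 at 4 h, 1.78, 1.797 and 1.75 at 12 h and 2.17, 2.18 and 2.12 at 24 h. The in vitro libraries lay below all naive ones. The 4 h difference from naive was -1.97 log2 (SD of the difference 0.143) and at 24 h it was still -1.11. In vivo and GC values overlapped with naive ones, with a difference for Psmb8 over Psmb5 of -0.14 in vivo (SD of the difference 0.151, exact two-sided permutation p = 0.3). Psmb9 over Psmb6 was 0.83, 0.98 and 0.98 in vivo, and in the GC groups averaged 0.47, 0.38 and 0.29 for early, peak and late, against 0.06, 0.06 and 0.07 in naive cells, while 4 h libraries had -2.46, -2.55 and -2.44. The differences from naive were 0.87 in vivo, 0.41, 0.32 and 0.23 in early, peak and late GC, and -2.54, -2.56 and -1.38 at 4 h, 12 h and 24 h. Psmb10 over Psmb7 averaged -0.79 in early, -1.03 in peak and -1.01 in late GC cells and -1.40 in vivo, against 0.09 in naive cells, and its difference from naive was -1.95 at 4 h and -2.31 at both 12 h and 24 h. In 27 of 39 planned tests the groups did not overlap, giving an exact two-sided permutation p of 0.1, the smallest that 3 against 3 can give (0.144 adjusted over the 39). The 39 tests share libraries and genes. How often other gene pairs separate in this way was not computed, so the count has no background.

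**Figure D3:**
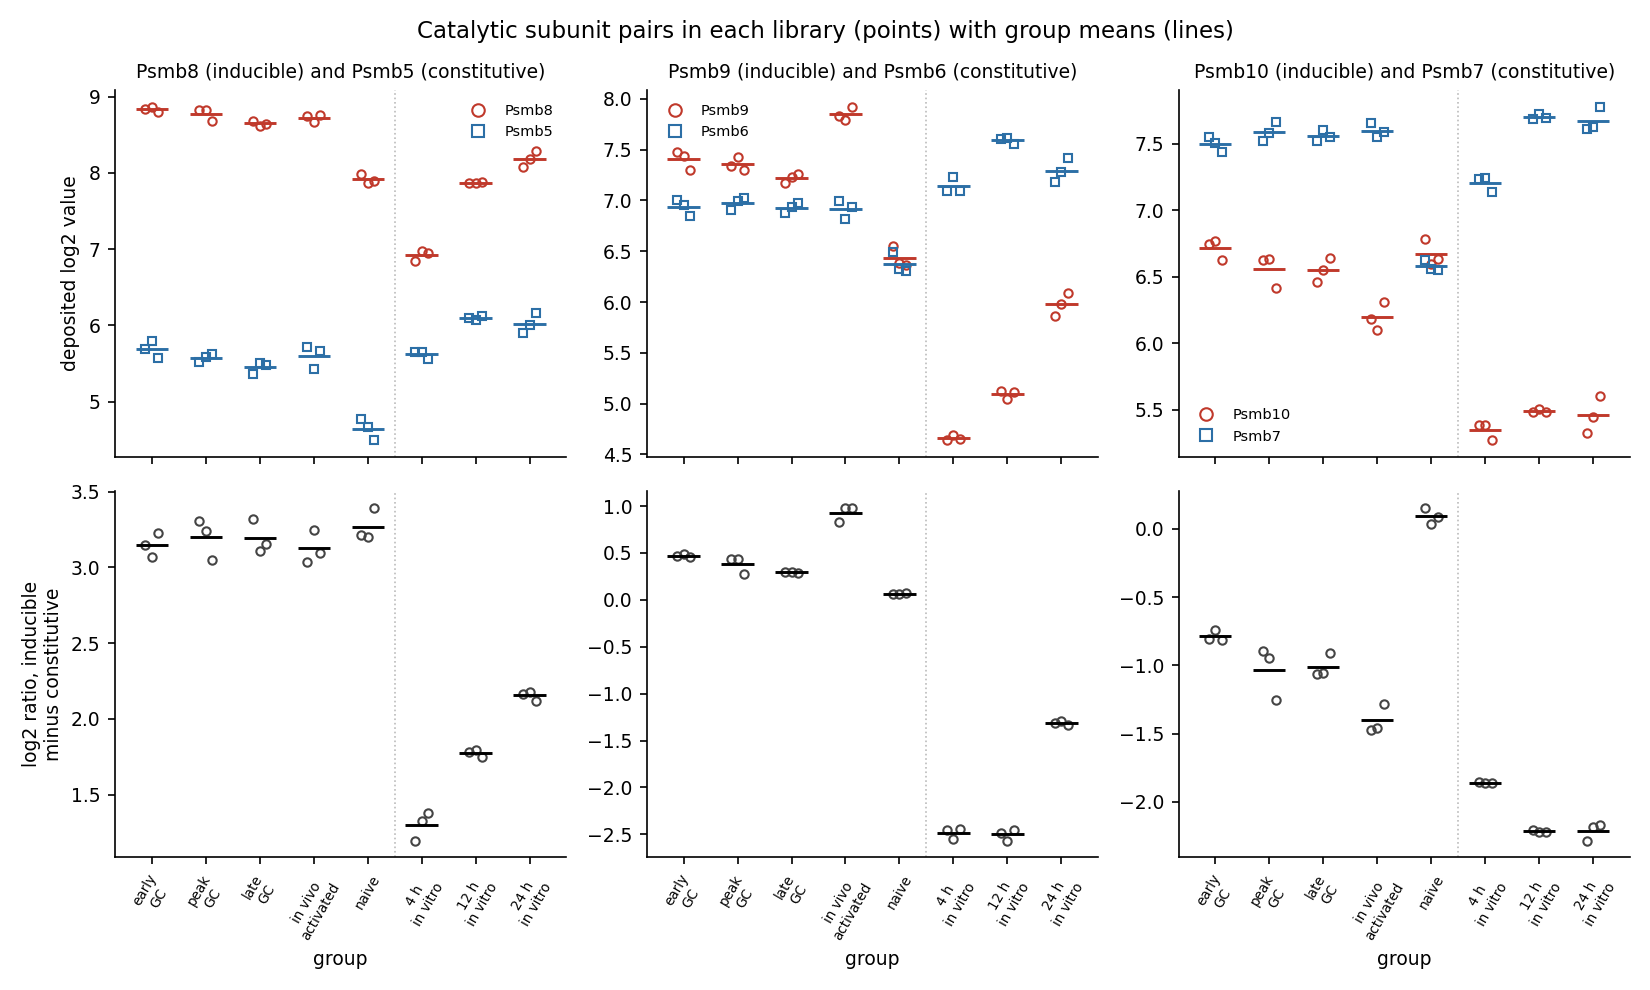
Upper row: log2 values per library of each inducible gene and its constitutive partner in the 8 groups. Lower row: the log2 ratio of the pair per library, where Psmb9 over Psmb6 is above 0 in vivo and in GC cells and -2.48 and -2.50 on average at 4 h and 12 h.

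The activator genes split as well. Psme2 had 7.08, 7.04 and 7.01 log2 in naive cells, 8.25, 8.29 and 8.24 at 4 h, 9.34, 9.34 and 9.29 at 12 h and 9.01, 9.04 and 9.09 at 24 h, with no overlap between naive and in vitro libraries. It rose by 1.22, 2.28 and 2.01 (SE 0.052, adjusted p 6.38e-16, 2.01e-20 and 3.41e-20). In vivo it rose by 0.65 (adjusted p 7.33e-11), while its values in early and peak GC cells overlapped with naive ones, with changes of 0.06 and 0.07 (adjusted p 0.292 and 0.229). In late GC cells the change was 0.16 (adjusted p 0.00942), and 0.12 with adjusted p 0.0567 without late GC replicate 3. Psme1 moved less: it had 8.05, 8.02 and 7.95 at 4 h, against 8.24, 8.13 and 8.10 in naive cells, and its change was -0.15 (SE 0.054, adjusted p 0.0155). That call was lost without naive replicate 1 (adjusted p 0.0987) or without 4 h replicate 3 (adjusted p 0.0766). At 12 h and 24 h Psme1 rose by 0.55 and 0.38 (adjusted p 2.14e-09 and 6.69e-07), and in vivo by 0.17 (adjusted p 0.00617). Psme2b, a retrocopy of Psme2, was not analysed here, and how reads shared by near-identical copies were counted is not given in the sources used here.

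Psme3, which encodes the nuclear PA28 gamma, had 7.69, 7.73 and 7.73 log2 in naive cells, 9.55, 9.56 and 9.55 at 4 h, 9.45, 9.49 and 9.45 at 12 h and 9.33, 9.34 and 9.29 at 24 h. It was the 1 member whose highest mean was at 4 h, with a rise of 1.84 (SE 0.049, adjusted p 1.91e-19), and it fell by 0.23 between 4 h and 24 h (adjusted p 0.000188). It rose by 0.63 in vivo (adjusted p 4.17e-11), and by 0.34 in early, 0.33 in peak and 0.23 in late GC cells. Psme4, the PA200 activator, rose by 0.60 at 4 h and 0.91 at 24 h (SE 0.097, adjusted p 6.36e-06 and 9.06e-09). In peak GC cells Psme4 rose by 0.28 (adjusted p 0.0121), and 0.16 without peak GC replicate 1 or without naive replicate 1 (adjusted p 0.121 and 0.124). Psmf1, encoding the inhibitor PI31, rose by 0.54 at 12 h (adjusted p 3.49e-08) and 0.44 in peak GC cells (adjusted p 9.99e-07), and showed 0.03 in vivo (adjusted p 0.675).

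The 20S assembly chaperones Psmg1, Psmg2 and Psmg3 made large rises in culture and smaller ones in GC cells. Psmg2 averaged 4.216 log2 in naive cells and 6.323 at 12 h, its highest group mean. Per kilobase it averaged 3.835 log2 in naive cells, 5.827 at 4 h and 4.991 in vivo. Its GC means per kilobase were 4.345 at the early stage, 4.373 at the peak and 4.235 late. Psmg1, which pairs with Psmg2 to build the alpha ring, had 5.75, 5.80 and 5.84 log2 at 12 h, against 3.11, 3.18 and 3.06 in naive cells. It rose by 2.68 and 2.76 at 12 h and 24 h (SE 0.099, adjusted p 3e-17 and 1.03e-17), by 1.79 in vivo and by 0.96 in peak GC cells. Psmg3 had 5.41, 5.44 and 5.66 log2 at 24 h, against 2.80, 2.82 and 2.52 in naive cells, a rise of 2.79 (SE 0.093, adjusted p 2.73e-18). Psmg4, the partner of Psmg3, ran the other way in GC cells. It had 3.94, 4.08 and 4.06 in early GC, 3.91, 3.99 and 3.91 in peak GC and 3.81, 3.77 and 3.75 in late GC cells, against 4.65, 4.58 and 4.49 in naive cells, with no overlap. It fell by 0.55, 0.64 and 0.80 (SE 0.073, adjusted p 3.68e-07, 3.09e-08 and 7.24e-10), and its change was -0.01 in vivo (adjusted p 0.907) and 0.78 at 12 h (adjusted p 9.98e-10). The 3 chaperones of the 19S base (Psmd5, Psmd9, Psmd10) had smaller medians, 0.47 at 4 h and 0.92 at 12 h.

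**Figure D4:**
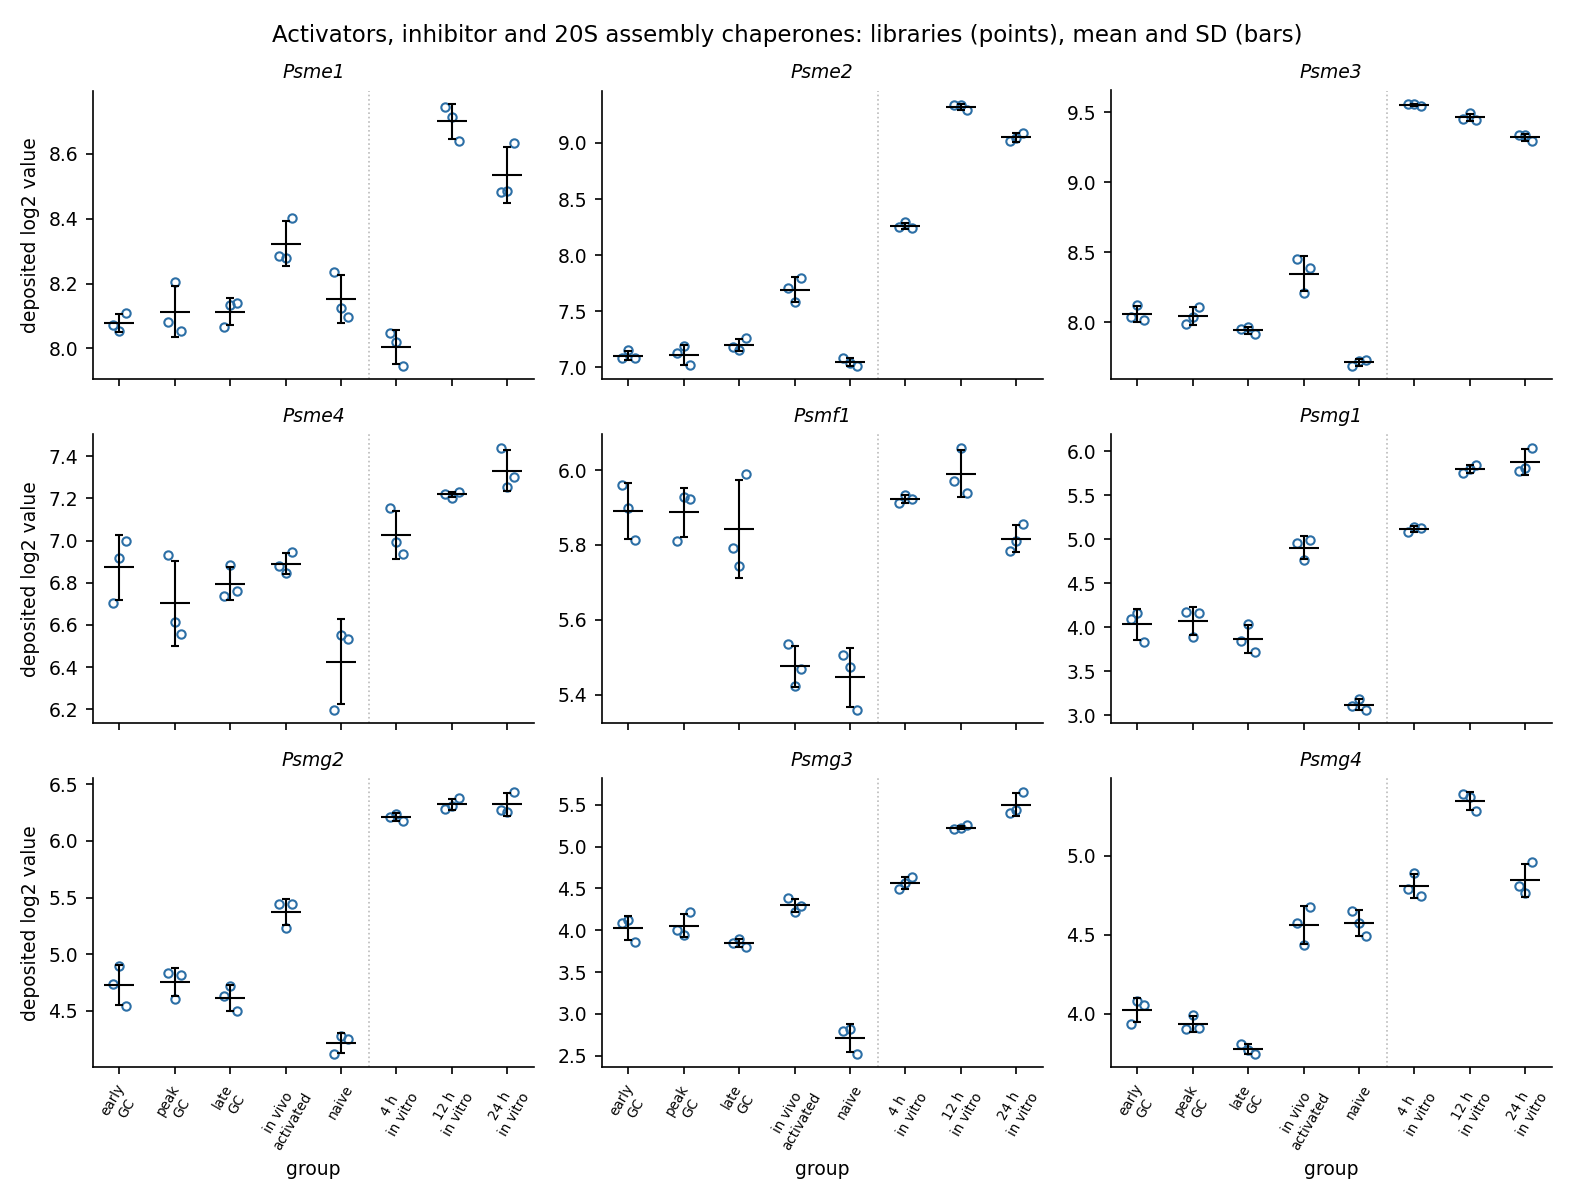
Log2 values per library (points) with group mean and SD for Psme1 to Psme4, Psmf1 and Psmg1 to Psmg4 in the 8 groups. Psme2 is highest at 12 h, at 9.29 to 9.34, while Psmg4 is lowest in late GC cells, at 3.75 to 3.81.

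From 4 h to 12 h 43 members rose and 0 fell (34.6% and 27.2% of all genes), the constitutive genes by a median of 0.60. By limma 0 had also fallen at an unadjusted p under 0.05, and 1 when those 2 groups alone were fitted. Psmb10, Psme3, Psme4, Psmf1 and Psmg2 were the 5 not called. From 12 h to 24 h 6 rose and 19 fell (22.5% and 34.8%), with small changes, a median of -0.10 over the constitutive genes and -0.10 over all genes tested. Those that rose were Psmc3ip, Psmb8, Psmb9, Psmg3, Psmd5 and Psmd13, and Psmb9 rose most among proteasome genes, by 0.89 (SE 0.062, adjusted p 3.22e-11). The rise of Psmg3, 0.27 (adjusted p 0.016), was 0.19 without 24 h replicate 3 (adjusted p 0.108). From 4 h to 24 h 41 rose and 1, Psme3, fell (36.8% and 39.2%).

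Cells activated in vivo and cells 24 h in vitro differed in nearly all members, with the 3 inducible catalytic genes higher in vivo and most other members lower. Relative to 24 h, 40 members were lower in vivo (36.3% of all genes) and 4 higher (33.6%). At 1.5-fold or more 12 were lower and 2 higher (19.2% in each direction). The 4 higher ones were Psmb8, Psmb9, Psmb10 and Psmb1. Psmb9 was higher by 1.87 (SE 0.062, adjusted p 4.38e-17), Psmb10 by 0.74 (adjusted p 1.01e-08), Psmb8 by 0.54 (adjusted p 5.16e-09) and Psmb1 by 0.23 (adjusted p 0.000276). The constitutive genes had a median of -0.39, and Psme2 was lower by 1.36 (SE 0.052, adjusted p 5.39e-16). This comparison and that of 24 h with 4 h were added after the data were examined. Among the class I loading genes, Tap1 averaged 8.53 log2 in vivo and 6.73 log2 at 24 h (adjusted p 2.12e-16).

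**Figure D5:**
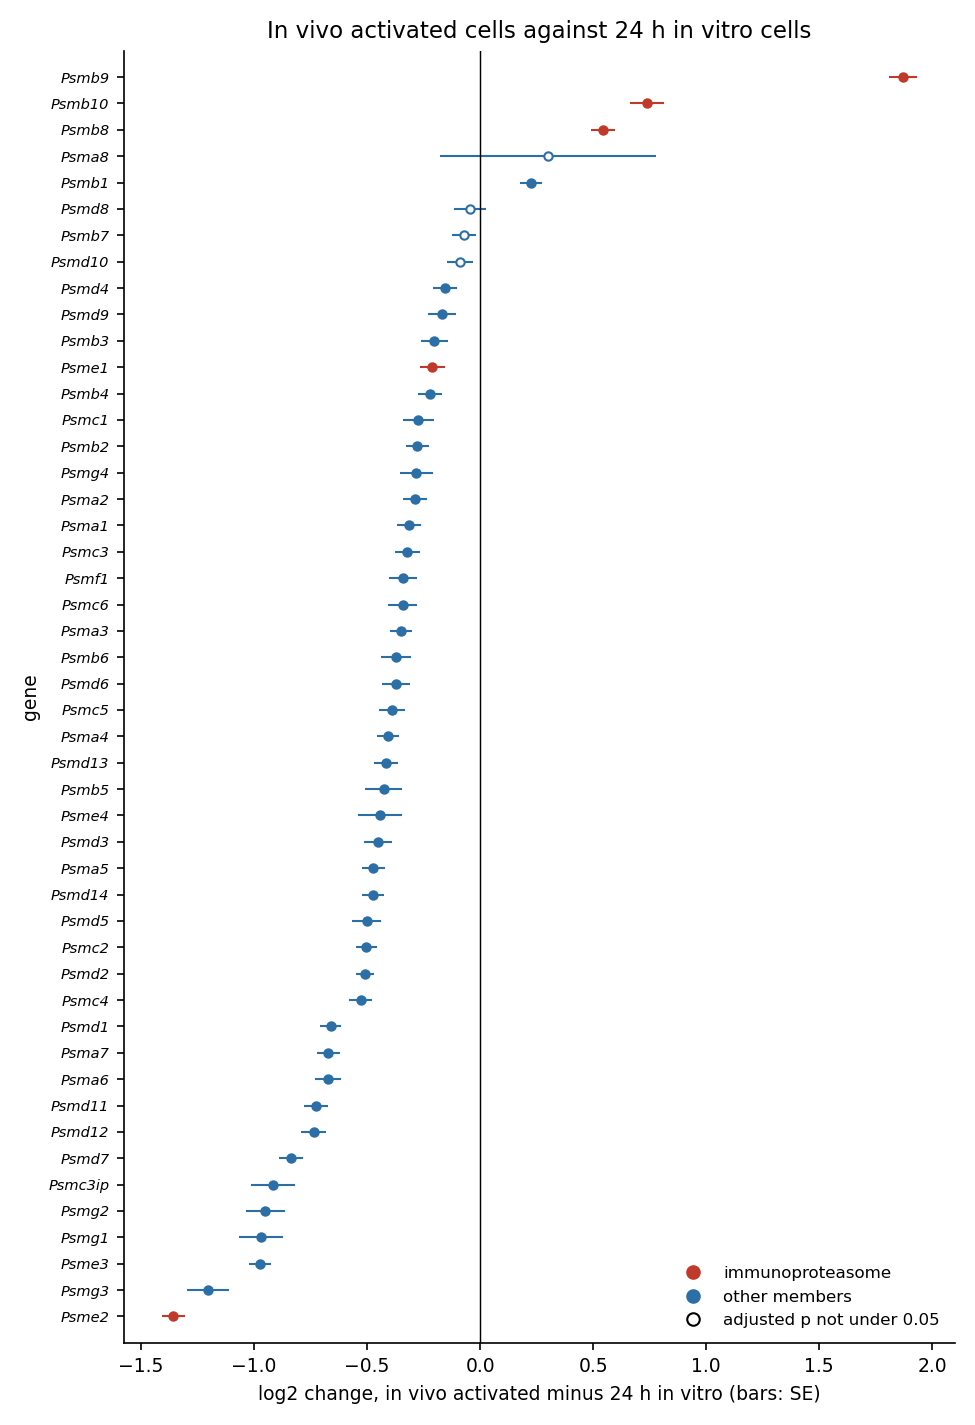
Log2 change (in vivo activated minus 24 h in vitro) with its SE for the 48 members, immunoproteasome genes in red. Psmb9, Psmb10 and Psmb8 lie above 0 at 1.87, 0.74 and 0.54, while Psme2 lies at -1.36.

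In peak GC cells, relative to in vivo activated cells, 7 members were higher and 27 lower (34.1% and 35% of all genes), with a median of -0.17 over the constitutive genes. The 7 were Psmd4, Psmd8, Psmd12, Psmd9, Psmd10, Psmf1 and Psmb10. Psmd4, a ubiquitin receptor, was higher by 0.49 (SE 0.054, adjusted p 2.84e-08) and Psmb10 by 0.36 (adjusted p 0.000196). Psmg1 was lower by 0.83 (adjusted p 1.01e-07), Psma4 by 0.73, Psme2 by 0.58 (adjusted p 1.02e-09) and Psmb9 by 0.49 (adjusted p 2.75e-07).

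Between GC stages few members differed. Peak against early GC had 1 higher and 0 lower (5.77% and 7.42%): Psmd4, with 7.69, 7.76 and 7.75 log2 at the peak, against 7.49, 7.50 and 7.44 early, rose by 0.25 (SE 0.054, adjusted p 0.00244). Limma had 2 higher and 0 lower at an unadjusted p under 0.05, and without peak GC replicate 1 the calls were 1 higher and 1 lower. Late against peak had 0 higher and 6 lower (12% and 20.6%): Psma1, Psmb2, Psmc1, Psmc4, Psmd13 and Psmd10. When only these 2 groups were fitted the count was 0, and between 1 and 5 when 1 library was left out, with 1 without late GC replicate 3 or without peak GC replicate 3, and 2 without late GC replicate 1 or 2. At an unadjusted p under 0.05 limma had 0 higher and 15 lower, and the median change was -0.07 over the members, against -0.07 over all genes tested. Late against early had 1 higher (Psmd4) and 9 lower (13% and 22.1%): Psma1, Psmb5, Psmb8, Psmb9, Psmc1, Psmc4, Psmd6, Psmd13 and Psmg4. That count of 10 was 6 without early GC replicate 1, 5 without early GC replicate 2 and 3 when only the 2 groups were fitted. The Psmb9 change there was -0.18 (adjusted p 0.0264), and it was not called without early GC replicate 1, early GC replicate 2 or late GC replicate 1 (adjusted p 0.111, 0.088 and 0.0928). The Psmb5 change was -0.23 (adjusted p 0.0309), and it was not called when any of the same 3 libraries was left out (adjusted p 0.0661, 0.145 and 0.121). Late GC libraries had the highest macrophage markers, as above, and neutrophil markers summing to 78.7 to 1016, against 21.3 to 89.8 at the peak. Erythroid markers summed to 139 to 370 in early, 78.1 to 97.7 in peak and 329.7 to 510.5 in late GC libraries, against 40.3 to 45.4 in naive ones. The NK-cell markers summed to 20.1 to 26.5 in early, 22.2 to 30.6 in peak and 32.0 to 98.3 in late GC libraries. The part of these markers in the changes between stages was not tested.

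The companion genes were read from lists chosen with earlier results of these data known. The backgrounds, higher and lower over all genes, are those given for the members: 38.9% and 39.1% at 4 h, 41.7% and 39.2% at 12 h, 42.2% and 42.5% at 24 h, 39.2% and 40.1% in vivo, and 38.5% to 40.5% and 39.3% to 43.1% at the GC stages. Of 17 partners of the proteasome, 11 were higher and 2 lower at 4 h, 12 and 3 at 12 h, 11 and 3 at 24 h, 8 and 5 in vivo, and 9 and 6 at each GC stage. Pomp, which matures the beta ring, rose by 1.15, 1.61 and 1.68 at 4 h, 12 h and 24 h, by 1.52 in vivo and by 1.48 in late GC cells. Uchl5, a deubiquitinase of the cap, rose by 1.63 at 4 h and 1.82 at 12 h. Nfe2l1, the transcription factor that restores proteasome genes after inhibition, had log2 changes of 0.80 at 4 h and -1.21 in early GC cells. Of 12 ubiquitin and p97 genes, 8 were higher and 3 lower at 4 h and at 12 h, 9 and 3 at 24 h, and 5 and 2 in vivo. At the GC stages 6 and 1 (early), 7 and 1 (peak) and 6 and 2 (late) of these 12 were higher and lower. Vcp, the p97 segregase, rose by 1.47 at 12 h. Of 14 class I loading genes, 5 were higher and 9 lower at 4 h and at 12 h, 4 and 9 at 24 h, and 8 and 5 in vivo. Tap1, Tap2, Tapbp, B2m, H2-K1, H2-D1, Nlrc5 and Irf1 were among those that fell at every in vitro time. Of these 14, 4 were higher and 9 lower in early GC cells, 2 and 10 in peak GC cells and 3 and 11 in late GC cells.

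Across the 8 group means, 25 of 31 constitutive genes (without Psma8) correlated above 0.9 with the mean of the constitutive genes (r 0.388 to 0.996, median 0.968). This describes 8 groups that share libraries and scaling. The share of all genes tested that correlated above 0.9 was not computed, so the count has no background beside it. Psmb2 had the highest r, 0.996, and Psmb1 the lowest, 0.388. Psmb10 had -0.694, Psmb9 -0.302 and Psmb8 -0.018, set against 0.803 for Psme2, 0.745 for Psme3 and 0.689 for Psme1. Among the genes tested that are not members, those most like Psmb9 over these means were Ehmt2 at 0.995, Hadhb at 0.994 and Stx7 at 0.992. Tap1, with 0.816, ranked 743. Those most like Psmb8 were C2cd5 at 0.995 and Hdac1 at 0.993, and those most like Psmb10 Rasgrp3 at 0.995 and Mad2l1bp at 0.993. These are the highest r in a search of all tested non-member genes over only 8 means. How high the best r comes out for other genes was not computed, so they are a description only. Psmc3ip had the widest range but for Psma8, with a rise of 3.71 at 24 h (SE 0.097, adjusted p 3.67e-20).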

How the data were processed

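Spleen B cells of 8 groups, 3 libraries each, were measured by stranded mRNA sequencing with paired reads of 75 bases, per the labels' protocols. The submitters' processing notes list mm10, STAR 2.6.0c, limma, Subread 1.6.2, featureCounts, cutadapt 1.8.3 and FastQC 0.11.5, with no roles; the annotation, strand setting and normalization steps are not given in the sources used here. The authors deposited log2 values per gene, the most frequent value being -6.18. Values in libraries of a group correlated across genes at 0.984 to 0.994.

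Genes at 0 log2 or more in at least 3 libraries (11885) were tested with limma 3.58.1 in R 4.3.3 (trend and robust moderation, 1 mean per group, 24 libraries, 16 residual degrees of freedom, Benjamini-Hochberg over all genes), in 13 planned comparisons and 2 added after the data were examined. The members and lists were chosen with earlier results of these data known. Any member could be named; the catalytic pairs, Psme, Psmf1 and Psmg genes are given in full, and up to 4 further members per comparison with the largest change. Pair ratios were tested by exact two-sided permutation over libraries (scipy 1.17.1). The fitting was tested on simulated data. Levels per kilobase used the bases covered by any GENCODE vM21 exon of the gene. Alternatives were a pseudocount of 1, no filter, a filter at 3 log2, median-centred libraries, plain moderation, a fit of the 2 groups alone, a replicate block and leaving out each library.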

Additional observations from a re-analysis of the deposited data

Results flagged for a closer look

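In vivo and 24 h in vitro activated cells differed from naive cells in opposite directions for Psmb9, by 1.41 and -0.46 log2, and the difference between them was 1.87 (SE 0.062, limma adjusted p 4.38e-17). Psmb8 differed from naive cells by 0.27 log2 at 24 h and by -0.99 at 4 h, a difference of 1.26 (SE 0.054, adjusted p 9.04e-16). Psmb1 differed by 0.50 at 24 h and by -0.15 at 4 h, a difference of 0.65 (SE 0.049, adjusted p 2.91e-11). Psme1 differed by 0.38 at 24 h and by -0.15 at 4 h, a difference of 0.53 (SE 0.054, adjusted p 5.89e-09), and its 4 h call was lost without naive replicate 1 or 4 h replicate 3 (adjusted p 0.0987 and 0.0766).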

How the results depend on the processing

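The 15 counts of called members were recomputed under each alternative. The counts for late against peak GC, 6 as reported, became 2 without the filter, 0 when only the 2 groups were fitted and 2 with a replicate block, and 1 to 5 when 1 library was left out. Late against early GC, 10 as reported, became 3 when only the 2 groups were fitted, and 5 to 14 when 1 library was left out. Peak against early GC, 1 as reported, became 1 to 2 when 1 library was left out. The other counts stayed within 1.5 times of the reported value, and 38 of 45 differences in pair ratios kept their sign. The other 7 were between groups that overlapped, were at most 0.072 log2 in size as reported, and took either sign under at least 1 alternative. The replicate block changed no other count by over 1.5 times; same-numbered libraries did not deviate together (median correlation -0.13), and 0 libraries matched best one of their own number. Of 225 results on single genes, 22 changed call under at least 1 alternative, 0 with a change of sign; fitting the 2 groups alone added 12 h against 4 h calls for Psmb10, Psme3, Psme4 and Psmg2 (adjusted p 0.0205, 0.023, 0.00608 and 0.0329). No result here rests on a known read depth, because the deposited values hold none, and low members such as Psma8 are the least precise.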
